A study of Homo sapiens with 8 samples.

Results

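The transcripts of 41 genes that encode subunits, activators or an inhibitor of the proteasome were examined in MOLM-13 cells after inhibition of the immunoproteasome. The genes were chosen by symbol from the subunit nomenclature, with earlier results of these data known. All 41 were found among the 38551 genes with values in the count table. MOLM-13 is an established human acute myeloid leukemia cell line that carries a KMT2A rearrangement. Cells of 4 libraries had been exposed for 72 h to 100 nM PR-957 (ONX-0914), a covalent inhibitor of the immunoproteasome subunit PSMB8, and cells of 4 libraries to the diluent DMSO. RNA was sequenced in bulk from this 1 line, so every comparison is of PR-957 with diluent in MOLM-13 cells, and gene positions are those of hg38. Nothing in the labels says that replicates came from separate cultures, and p-values measure only the spread between these samples.

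The proteasome is the large protease that degrades ubiquitin-tagged proteins in the cytosol and nucleus. Its 20S core is a barrel of outer alpha rings, which form the gate, and inner beta rings, which hold the proteolytic sites. The 19S cap binds to the gate: its base contains a ring of ATPases that unfold substrates, and its lid contains the enzyme that removes ubiquitin. In hematopoietic cells the catalytic beta subunits PSMB6, PSMB7 and PSMB5 can be replaced by the inducible PSMB9, PSMB10 and PSMB8, which yields the immunoproteasome. When proteasome activity drops, the membrane-bound factor NFE2L1 can be processed into a nuclear activator of subunit genes.

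Fragment totals of the 8 libraries ranged from 16675036 to 23111223, so that 3 counts, the limit that a count of 0 allows, corresponded to 0.131 to 0.188 CPM, the normalised count used here (TMM scaling). This limit covers counting error only. All 8 myeloid markers examined reached an average of 1 CPM, with a summed level of 1680 to 1745 CPM with DMSO and 2373 to 2628 CPM with PR-957. Within this sum, mean LYZ (153 and 820 CPM with DMSO and PR-957) and MPO (175 and 506 CPM) were greater with PR-957, and mean FLT3 (340.4 and 173 CPM) and PTPRC (207 and 131 CPM) were smaller. Of 8 markers of other cell types, PECAM1 and COL1A1 reached 1 CPM and CD3E was at 0. The sum of the 8 was 44.0 to 64.8 CPM with DMSO and 84.2 to 87.2 CPM with PR-957. Nearly all of this sum was PECAM1, with means of 49.2 CPM with DMSO and 83.0 CPM with PR-957. COL1A1 had means of 1.27 and 1.14 CPM. Whether PECAM1 transcripts came from other cells was not tested. Mitochondrially encoded transcripts took 1.94 to 2.75% of counts in DMSO libraries and 4.15 to 5.24% in PR-957 libraries, while ribosomal protein transcripts took 17.9 to 19.3% and 13.9 to 15.7%. The part of these shifts in the proteasome results was not tested beyond the scaling: without both gene groups in the scaling factors, the number of subunit genes called was still 23.

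Under PR-957, proteasome subunit transcripts moved upwards in small steps across the core and the cap. Of the 41 genes, 36 had enough counts for the test, and 23 of these were higher under PR-957 by edgeR (quasi-likelihood test, p adjusted over all genes tested and under 0.05), compared with 23.1% of all 13179 genes tested. No subunit gene was lower by edgeR, compared with 23.5% of all genes tested. None was lower by DESeq2 (2965 of 16215 genes tested were) or limma-voom (3087 of 13179). At an unadjusted p under 0.05 by edgeR none was lower either, compared with 3490 of 13179 genes tested. The remaining 13 subunit genes did not pass the threshold in this unpaired fit. With the replicate number as a block, 26 subunit genes and 3513 of all 13179 genes tested were higher. Class counts of called genes below are read against the 23.1% of all genes tested that were higher in the unpaired fit. In 22 subunit genes each PR-957 library lay above each DMSO library, a pattern that 20.8% of all genes tested showed. The median log2 fold change was 0.22 over the 36 subunit genes and 0.003 over all genes tested. Scaling by library totals alone, which shifted the median of all genes to 0.081, gave 30 higher subunit genes. PSMD1 was the sole subunit gene that was both higher and changed at least 1.5-fold, whereas 6.8% of all genes tested were. In 28 subunit genes every PR-957 library exceeded the DMSO library of the same replicate number, a pattern that 30.3% of all genes tested showed, and in none did every PR-957 library fall below it. Whether a level moved through more RNA per cell or through a shift in the cells present cannot be told apart in bulk RNA.

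**Figure D1:**
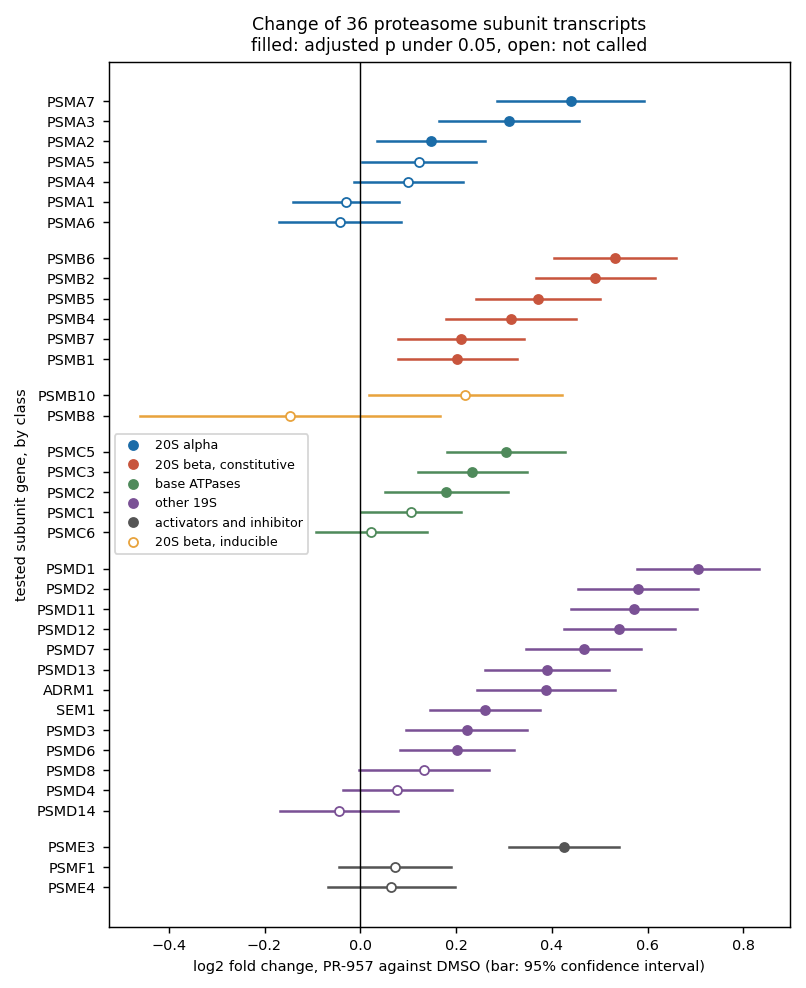
Log2 fold change of PR-957 against DMSO (x axis) for each of the 36 tested subunit genes (y axis), grouped by class, with 95% confidence intervals over 4 and 4 libraries. Filled points had an adjusted p under 0.05 and open points did not. All 6 tested constitutive beta subunits are filled, PSMD1 lies farthest to the right, and no filled point lies left of 0.

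The labels name no batch, and replicates 1 and 2 were also compared apart from replicates 3 and 4. Within replicates 1 and 2 alone 24 subunit genes were higher, within replicates 3 and 4 alone 19, and with this split as a term in the model 24. DMSO replicate 4, the deepest library, had the lowest summed level of subunit transcripts. The sum over all subunit genes was 4315 to 4873 CPM with DMSO and 5250 to 5760 CPM with PR-957, which was 0.427 to 0.467% and 0.549 to 0.578% of all counts. Without DMSO replicate 4, 22 subunit genes were higher and the median log2 fold change was 0.17.

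Since many subunit genes moved together, their promoters were searched for motifs of factors linked to proteasome genes. RefSeq start sites on GRCh38.p14 gave windows of 250 bases before to 50 bases after the start for 36 of the 41 genes, and for 27305 genes in all. The core of the antioxidant response element, TGACNNNGC on either strand, the motif of NFE2L1 and related factors, was found in 13 of the 36 (36.1%), compared with 16.1% of all promoters. Among subunit genes tested it was found in 8 of 31 (25.8%), compared with 19.6% of promoters of all genes tested. Among subunit genes with a window, 6 of 19 that rose and 2 of 12 that were tested without a call held it. The CCAAT box was present in 19 of 36 (52.8%), compared with 39.7% of all promoters. Among subunit genes tested it was present in 17 of 31 (54.8%), compared with 43.1% of promoters of all genes tested. It was present in 13 of the 19 that rose and 4 of the 12 without a call. The ETS core CCGGAA was present in 19 of 36 (52.8%), compared with 20.1% of all promoters. Among subunit genes tested it was present in 19 of 31 (61.3%), compared with 35.4% of promoters of all genes tested. It was present in 12 of the 19 that rose and 7 of the 12 without a call. An inverted pair of heat shock units, GAANNTTC, was present in 1 of 36, SEM1, compared with 8.21% of all promoters. GAANNTTC and CCGGAA can share the letters GAA. These matches are letters in a window and not measured binding.

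The matches of the 4 subunit genes with the lowest adjusted p among those that hold TGACNNNGC are shown 5′ to 3′ in the direction of the gene, with the match in capitals.
PSMD1 (chr2:231056896-231056924, plus strand): aggaggcgacTGACTGAGCagcgcacccg
PSMD12 (chr17:67366688-67366788, minus strand): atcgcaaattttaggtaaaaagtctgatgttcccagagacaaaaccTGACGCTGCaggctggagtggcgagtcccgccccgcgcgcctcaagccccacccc
ADRM1 (chr20:62302749-62302777, plus strand): cgctcccctaTGACACAGCaacaataggg
PSMC5 (chr17:63827654-63827682, plus strand): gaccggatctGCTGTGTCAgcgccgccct
In PSMD12 the match begins 165 bases before the RefSeq start. In PSMD1 it begins at base 40 after the start, within the first exon. In ADRM1 and PSMC5 it begins 137 and 57 bases before the start of the window used, but the gene models of the count table begin further upstream and place it in an exon of ADRM1 and an intron of PSMC5. The match in PSMC5 is on the opposite strand and is shown as its reverse complement.

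The alpha subunits form the outer rings of the core, where they close the gate and provide the docking surface for caps. Of 7 genes, 3 rose (PSMA7, PSMA3 and PSMA2) and 4 did not pass the threshold, with a median log2 fold change of 0.12. PSMA7, the subunit alpha4 (chromosome 20, 62136733 to 62143394), was measured at 153, 135, 154 and 123 CPM in DMSO replicates 1 to 4 and 206, 183, 201 and 175 CPM in PR-957 replicates 1 to 4. All PR-957 libraries were above all DMSO libraries, with a change of 0.44 ± 0.073 on the log2 scale (± SE, adjusted p = 9.27e-05). PSMA3 (alpha7) had a change of 0.31 ± 0.070 on the log2 scale (± SE, adjusted p = 0.00133), and its groups did not overlap. PSMA2 (alpha2) had a change of 0.15 ± 0.054 on the log2 scale (± SE, adjusted p = 0.0297), although the highest DMSO library exceeded the lowest PR-957 library. This last call was lost in 8 of 21 alternatives.

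Among the 4 alpha subunit genes without a call, PSMA5 and PSMA4 had small positive differences and PSMA1 and PSMA6 lay near 0. PSMA5 (alpha5) was found at 155, 150.1, 156 and 136 CPM with DMSO and 171, 160.0, 164 and 154 CPM with PR-957. PR-957 was higher in 4 of 4 same-numbered pairs but the groups overlapped, with a change of 0.12 ± 0.057 on the log2 scale (± SE, adjusted p = 0.0853). With the replicate number as a block, this pairing gave PSMA5 an adjusted p of 0.0273. PSMA4 (alpha3) was found at 253, 253, 268 and 232 CPM with DMSO and 280.2, 262, 269 and 268 CPM with PR-957, in overlapping groups, with a change of 0.10 ± 0.054 on the log2 scale (± SE, adjusted p = 0.141). PSMA1 (alpha6) counts gave 206, 204, 218 and 203 CPM with DMSO and 217, 202, 200.5 and 196 CPM with PR-957. The DMSO and PR-957 ranges were nearly the same, with a change of -0.030 ± 0.053 on the log2 scale (± SE, adjusted p = 0.67) and a 95% interval of -0.14 to 0.081. For PSMA6 (alpha1), levels of 246, 238, 268 and 237 CPM with DMSO and 260.3, 249, 229.7 and 221 CPM with PR-957 were obtained. Its lowest values were those of PR-957 replicates 3 and 4, and the fit gave a change of -0.042 ± 0.061 on the log2 scale (± SE, adjusted p = 0.601) with an interval of -0.17 to 0.086. The summed level of the 7 alpha genes was 1296 ± 72.4 CPM with DMSO and 1416 ± 70.6 CPM with PR-957 (SD, n = 4), a ratio of 1.09.

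The constitutive beta subunits build the inner rings, and 3 of them, PSMB6, PSMB7 and PSMB5, carry the active sites. PSMB3 had no counts. The other 6 genes all rose, without overlap between the groups, with a median log2 fold change of 0.34. PSMB6, the subunit beta1 with caspase-like activity (chromosome 17, 4796144 to 4798503), was measured at 63.1, 62.9, 64.1 and 55.8 CPM in DMSO replicates 1 to 4 and 94.9, 87.96, 88.6 and 83.6 CPM in PR-957 replicates 1 to 4. The lowest PR-957 library was well above the highest DMSO library, with a change of 0.53 ± 0.061 on the log2 scale (± SE, adjusted p = 8.93e-07). PSMB7, the trypsin-like beta2 (chromosome 9, 124353465 to 124415442), had 109, 104, 113 and 99.5 CPM in DMSO replicates 1 to 4 and 138, 116, 118 and 121 CPM in PR-957 replicates 1 to 4. PR-957 replicate 1 was the highest and the gap between the groups was small, with a change of 0.21 ± 0.063 on the log2 scale (± SE, adjusted p = 0.00955). PSMB5, the chymotrypsin-like beta5 (chromosome 14, 23025851 to 23035220), had 67.5, 62.3, 63.6 and 63.3 CPM in DMSO replicates 1 to 4 and 89.8, 82.8, 84.5 and 74.6 CPM in PR-957 replicates 1 to 4. DMSO libraries lay within a narrow range and each PR-957 library was above it, with a change of 0.37 ± 0.062 on the log2 scale (± SE, adjusted p = 6.5e-05).

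The beta subunits without an active site moved in the same direction as the catalytic ones. PSMB2 (beta4) had a change of 0.49 ± 0.059 on the log2 scale (± SE, adjusted p = 1.77e-06) and PSMB4 (beta7) had a change of 0.31 ± 0.065 on the log2 scale (± SE, adjusted p = 0.00054). The smallest change of the class belonged to PSMB1 (beta6), at 241, 219, 233 and 203 CPM in DMSO replicates 1 to 4 and 272, 263, 249.6 and 246 CPM in PR-957 replicates 1 to 4. Its lowest PR-957 library was just above its highest DMSO library, with a change of 0.20 ± 0.059 on the log2 scale (± SE, adjusted p = 0.00841). In replicates 3 and 4 alone, PSMB1 and PSMB7 lost their calls (adjusted p = 0.0911 and 0.128). The 6 genes together summed to 816 ± 49.1 CPM with DMSO and 1017 ± 57.5 CPM with PR-957 (SD, n = 4), a ratio of 1.25.

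**Figure D2:**
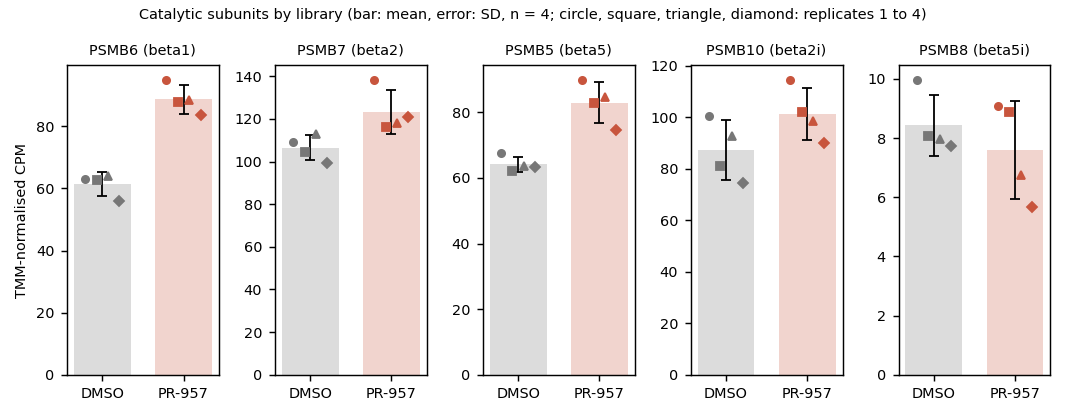
TMM-normalised CPM (y axis) of the constitutive catalytic subunits PSMB6, PSMB7 and PSMB5 and the inducible PSMB10 and PSMB8 in each library (points), with the mean as a bar from 0 and the SD as an error bar (n = 4). The groups are apart in the first 3 panels and overlap in the panels of PSMB10 and PSMB8. PSMB9 had no counts.

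The inducible beta subunits define the immunoproteasome and include the target of PR-957. Of 3 genes, PSMB9 had no counts and neither PSMB10 nor PSMB8 passed the threshold. PSMB10, the inducible beta2i (chromosome 16, 67934506 to 67936850), was measured at 100.5, 80.97, 92.8 and 74.6 CPM in DMSO replicates 1 to 4 and 114, 102, 98.8 and 90.1 CPM in PR-957 replicates 1 to 4. DMSO replicates 1 and 3 lay within the range of the PR-957 libraries, with a change of 0.22 ± 0.093 on the log2 scale (± SE, adjusted p = 0.0692) and a 95% interval of 0.019 to 0.42. PR-957 was higher in 4 of 4 same-numbered pairs, and with the replicate number as a block the adjusted p was 0.000819. Alternatives moved it between 0.000819 and 0.182, and the call was made in 9 of 21.

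PSMB8, the inducible beta5i (chromosome 6, 32840717 to 32844679), was measured at 9.96, 8.08, 7.97 and 7.73 CPM in DMSO replicates 1 to 4 and 9.08, 8.87, 6.76 and 5.68 CPM in PR-957 replicates 1 to 4. PR-957 replicates 3 and 4 were the lowest and replicates 1 and 2 lay within the DMSO range, with a change of -0.15 ± 0.15 on the log2 scale (± SE, adjusted p = 0.438) and an interval of -0.46 to 0.17. These values came from 101 to 177 counts per library. The gene models place PSMB8 on chromosome 6 and on 7 alternate contigs, 6 of which hold an exact copy of all its exons. The part of these copies in its counts was not tested, so its level is uncertain.

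PSMB10 and PSMB8 were then set against the constitutive subunit whose place each takes, as a log2 ratio within each library that does not depend on scaling. PSMB9, with 0 counts, gave no ratio to PSMB6. The PSMB10 to PSMB7 ratio was -0.12, -0.37, -0.29 and -0.41 in DMSO replicates 1 to 4 and -0.27, -0.19, -0.26 and -0.42 in PR-957 replicates 1 to 4. The groups overlapped and differed by 0.013 on the log2 scale (exact permutation p = 0.857, two-sided, 70 splits). The PSMB8 to PSMB5 ratio was -2.76, -2.95, -3.00 and -3.03 with DMSO and -3.31, -3.22, -3.64 and -3.72 with PR-957. All PR-957 libraries were below all DMSO libraries, a difference of -0.54 with an exact permutation p of 0.0286, the smallest that this design allows. Adjusted over the 2 ratios it was 0.0571 and did not pass 0.05. By edgeR the denominator PSMB5 rose by 0.37 on the log2 scale (adjusted p = 6.5e-05), whereas PSMB8 changed by -0.15 (adjusted p = 0.438). The ratio thus moved more through PSMB5 than through PSMB8. The part of the second placements of PSMB8 in this ratio was not tested.

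The base ATPases PSMC1 to PSMC6 form the ring that unfolds substrates and threads them into the core. PSMC4 had no counts, 3 of the other 5 genes rose and 2 did not pass, with a median log2 fold change of 0.18. PSMC5 (Rpt6) changed the most and was measured at 174, 166, 171 and 149 CPM in DMSO replicates 1 to 4 and 211, 189, 211 and 203 CPM in PR-957 replicates 1 to 4. No DMSO library reached the PR-957 range, with a change of 0.30 ± 0.059 on the log2 scale (± SE, adjusted p = 0.000317). PSMC3 (Rpt5) had a change of 0.23 ± 0.055 on the log2 scale (± SE, adjusted p = 0.00159) without overlap. PSMC2 (Rpt1) had a change of 0.18 ± 0.062 on the log2 scale (± SE, adjusted p = 0.0221), in groups that overlapped, and 4 of 21 alternatives lost this call. PSMC1 (Rpt2) was found at 158, 151, 161 and 155 CPM with DMSO and 172, 168, 169.8 and 164 CPM with PR-957. The groups were apart by a narrow margin, yet the fit gave a change of 0.11 ± 0.050 on the log2 scale (± SE, adjusted p = 0.0883), and with the replicate block 0.0513. PSMC6 (Rpt4) was found at 94.7, 91.00, 96.4 and 91.4 CPM with DMSO and 95.4, 102, 90.2 and 92.1 CPM with PR-957, in overlapping groups, with a change of 0.023 ± 0.055 on the log2 scale (± SE, adjusted p = 0.755) and an interval of -0.092 to 0.14. Together the 5 genes summed to 670.1 ± 26.6 CPM with DMSO and 763 ± 24.9 CPM with PR-957 (SD, n = 4), a ratio of 1.14.

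Of the other 19S genes, 10 of 13 rose, with a median log2 fold change of 0.39. Among the 4 subunits of the base without ATPase activity, PSMD1 and PSMD2 are the large scaffolds that hold shuttle factors and receptors, and PSMD4 and ADRM1 are ubiquitin receptors. PSMD1 (Rpn2, chromosome 2, 231056864 to 231172827) was measured at 90.9, 89.5, 90.4 and 76.6 CPM in DMSO replicates 1 to 4 and 149, 138, 139 and 140.0 CPM in PR-957 replicates 1 to 4. DMSO replicate 4 was the lowest of all libraries and the PR-957 libraries lay close together, with a change of 0.71 ± 0.061 on the log2 scale (± SE, adjusted p = 1.99e-08). Without DMSO replicate 4 the log2 fold change of PSMD1 was 0.65. PSMD2 (Rpn1) had a change of 0.58 ± 0.060 on the log2 scale (± SE, adjusted p = 2.35e-07) and ADRM1 (Rpn13) had a change of 0.39 ± 0.069 on the log2 scale (± SE, adjusted p = 0.000132), both without overlap. PSMD4 (Rpn10) was found at 277, 267, 265 and 253 CPM with DMSO and 296, 289, 272 and 264 CPM with PR-957. Its ranges overlapped, with a change of 0.077 ± 0.054 on the log2 scale (± SE, adjusted p = 0.259).

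In the lid, 7 of 9 genes rose and 2 did not pass, with a median log2 fold change of 0.26. The lid subunits PSMD11 (Rpn6), PSMD12 (Rpn5), PSMD13 (Rpn9), PSMD3 (Rpn3) and PSMD6 (Rpn7) are scaffold proteins that share a PCI domain. Their log2 fold changes were 0.57 (adjusted p = 5.1e-07), 0.54 (adjusted p = 2.19e-07), 0.39 (adjusted p = 4.18e-05), 0.22 (adjusted p = 0.00501) and 0.20 (adjusted p = 0.00661), in the same order, and none of these groups overlapped. PSMD7 (Rpn8), the inactive partner of the deubiquitinase, had a change of 0.47 ± 0.058 on the log2 scale (± SE, adjusted p = 2.19e-06). SEM1, a small acidic subunit, had a change of 0.26 ± 0.055 on the log2 scale (± SE, adjusted p = 0.000709). PSMD14 (Rpn11), the deubiquitinase of the lid (chromosome 2, 161308425 to 161411717), was measured at 116, 111, 124 and 107 CPM in DMSO replicates 1 to 4 and 114, 106, 106 and 116 CPM in PR-957 replicates 1 to 4. PR-957 libraries were higher in 1 of 4 same-numbered pairs, with a change of -0.044 ± 0.059 on the log2 scale (± SE, adjusted p = 0.563) and an interval of -0.17 to 0.079. The interval of its partner PSMD7, 0.35 to 0.59, lay above that of PSMD14. PSMD8 (Rpn12) was found at 136, 134, 147 and 125 CPM with DMSO and 165, 150.5, 140.0 and 138 CPM with PR-957. PR-957 replicates 3 and 4 lay within the DMSO range, with a change of 0.13 ± 0.065 on the log2 scale (± SE, adjusted p = 0.0984), while the replicate block gave PSMD8 an adjusted p of 0.0401. The summed level of the 13 genes was 1497 ± 76.7 CPM with DMSO and 1852 ± 57.6 CPM with PR-957 (SD, n = 4), a ratio of 1.24.

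Of the activators and the inhibitor, 1 of 3 genes tested was higher, compared with 23.1% of all genes tested. PSME3, the nuclear activator PA28 gamma (chromosome 17, 42833397 to 42843760), was measured at 109, 119.6, 120.0 and 106 CPM in DMSO replicates 1 to 4 and 151, 156, 151 and 152 CPM in PR-957 replicates 1 to 4. PR-957 libraries lay within a few CPM of each other and above all DMSO libraries, with a change of 0.43 ± 0.055 on the log2 scale (± SE, adjusted p = 4.08e-06). PSME4, the activator PA200, was found at 50.04, 56.97, 53.7 and 49.1 CPM with DMSO and 54.4, 51.6, 57.7 and 55.6 CPM with PR-957, in overlapping groups, with a change of 0.065 ± 0.064 on the log2 scale (± SE, adjusted p = 0.421). PSMF1, the inhibitor PI31, was found at 90.00, 87.5, 99.01 and 89.5 CPM with DMSO and 95.6, 93.1, 95.6 and 101 CPM with PR-957, also overlapping, with a change of 0.073 ± 0.056 on the log2 scale (± SE, adjusted p = 0.297).

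Not all subunits could be measured. PSMB3, PSMB9, PSMC4 and PSME1 had 0 counts in every library, which allows at most 0.188 CPM of counted fragments in the shallowest, and PSME2 had 4 to 17 counts. PSMB3 (beta3) and PSMC4 (Rpt3) are parts of every constitutive proteasome, and PSME1 and PSME2 form the interferon-inducible cap PA28. These 5 genes and PSMB8 are the subunit genes that the gene models also place on an alternate or fix contig of the assembly. Of all genes with such a second placement on top of a primary one, 62.0% of 2094 had 0 counts in all libraries, compared with 36.5% of 36114 genes on a primary chromosome alone. For PSMB3, all 762 exon bases occur exactly on its alternate contig, and for PSMB9 all 1017 exon bases occur on at least 1 of 7. The contigs of PSMC4, PSME1 and PSME2 were not in the genome used here, and their exons could not be checked for copies. How fragments that match several places were counted was not examined here. Why these counts are 0 was not tested, and they are not read as absence of the transcripts. All 23 calls were among the 35 tested genes with 1 placement, and with all genes of second placement left out of the fit the count was still 23.

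Levels were compared between genes per kilobase of exon (FPKM), for the 35 genes with 1 placement. Mean levels in DMSO ranged from 7.10 FPKM for PSME4 to 279 FPKM for PSMB4, with a median of 55.7 FPKM. Next to PSMB4, PSMB1 (251 FPKM) and PSMD4 (203 FPKM) were the highest, and PSMF1 (10.96 FPKM), PSMD11 (13.5 FPKM) and PSMD12 (15.2 FPKM) followed PSME4 at the low end. These levels divide by all annotated exon bases, and genes with long annotated exons had low values (Spearman rho = -0.87 over the 35 genes), so the levels do not give subunit stoichiometry. The class medians were 101 FPKM for the alpha genes, 89.4 FPKM for the constitutive beta genes, 26.3 FPKM for the ATPases and 47.3 FPKM for the other 19S genes. Between the DMSO level and the log2 fold change, Spearman's rho was -0.15 over the 35 genes, which share the same libraries. The coefficient of variation between DMSO libraries had a median of 6.25% over the 36 tested subunit genes.

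**Figure D3:**
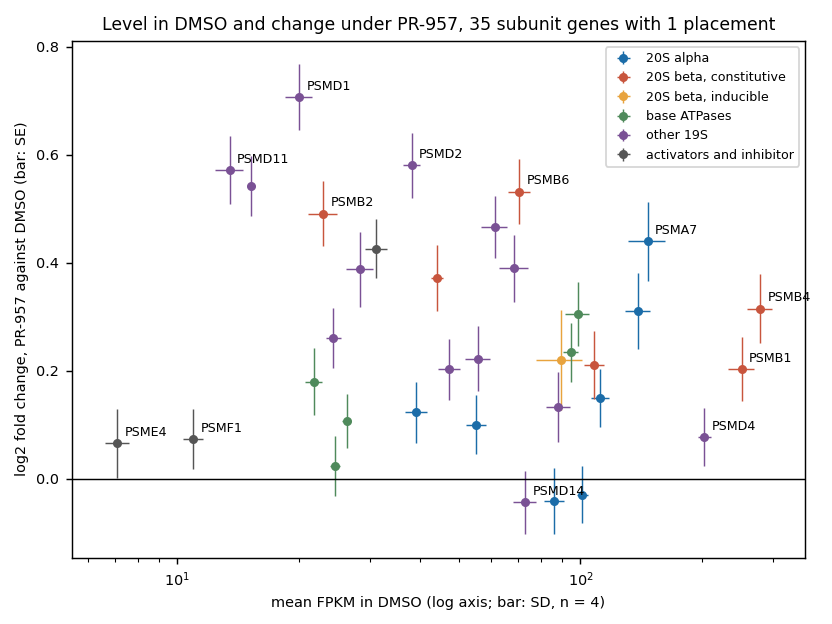
Mean level in DMSO (x axis, FPKM, log axis, bars show SD, n = 4) against the log2 fold change of PR-957 against DMSO (y axis, bars show SE) for 35 subunit genes with 1 placement, coloured by class. PSMD1, PSMD11 and PSMB2 had log2 fold changes of 0.71, 0.57 and 0.49 at levels of 20.1, 13.5 and 22.99 FPKM, whereas the abundant PSMD4 (203 FPKM) did not pass the threshold. The most abundant genes, PSMB4 (279 FPKM) and PSMB1 (251 FPKM), rose by 0.31 and 0.20, and the lowest, PSME4 (7.10 FPKM), did not pass. Spearman's rho was -0.15 over the 35 genes.

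To see whether genes around the proteasome moved with its subunits, a list of 25 assembly factors, NFE2L1 pathway members, associated factors and tissue-restricted subunits was examined. Of 23 tested, 5 rose, 7 fell and 11 did not pass, with a median log2 fold change of -0.072. Of all genes tested, 23.1% were higher and 23.5% lower, and the list and its parts are read against these shares. Without DMSO replicate 4, 3 rose, and with the replicate number as a block 7 rose and 8 fell. Among 9 assembly genes, PSMG3 rose and PSMG2 and PSMG4 fell, and all 3 encode chaperones of 20S assembly. PSMG3 was found at 53.1, 43.9, 53.8 and 40.1 CPM with DMSO and 57.9, 50.4, 57.9 and 55.4 CPM with PR-957, with a change of 0.22 ± 0.087 on the log2 scale (± SE, adjusted p = 0.0473). PSMG4 was found at 43.8, 41.4, 42.9 and 33.03 CPM with DMSO and 36.9, 32.3, 35.1 and 33.7 CPM with PR-957, with a change of -0.22 ± 0.083 on the log2 scale (± SE, adjusted p = 0.0355). Both sets of values overlapped between groups. PSMG2 had a change of -0.17 ± 0.055 on the log2 scale (± SE, adjusted p = 0.0143). POMP, which guides the beta rings, and PSMG1, PSMD5, PSMD9, PSMD10 and PAAF1 did not pass.

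In the NFE2L1 part of the list, 1 of 5 genes rose and 1 fell. NFE2L1, the activator of subunit genes that is itself controlled mainly after translation, was measured at 115, 112, 116 and 119 CPM in DMSO replicates 1 to 4 and 74.2, 71.8, 72.9 and 78.9 CPM in PR-957 replicates 1 to 4. Every PR-957 library was far below every DMSO library, with a change of -0.63 ± 0.053 on the log2 scale (± SE, adjusted p = 1.54e-08). VCP, the ATPase that extracts NFE2L1 and other substrates from membranes, was measured at 208, 196, 199 and 177 CPM in DMSO replicates 1 to 4 and 264, 269, 254 and 248 CPM in PR-957 replicates 1 to 4. Its groups were apart in the other direction, with a change of 0.41 ± 0.057 on the log2 scale (± SE, adjusted p = 9.71e-06). NFE2L2, DDI2 (the protease that cleaves NFE2L1) and NGLY1 (which removes its glycans) did not pass, with log2 fold changes of -0.084 (adjusted p = 0.246), 0.12 (adjusted p = 0.108) and -0.14 (adjusted p = 0.0556).

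Of 9 proteasome-associated genes, 3 rose and 4 fell. The deubiquitinases that sit on the 19S cap moved in opposite directions: USP14 had a change of 0.24 ± 0.054 on the log2 scale (± SE, adjusted p = 0.00134), whereas UCHL5 had a change of -0.48 ± 0.054 on the log2 scale (± SE, adjusted p = 6.15e-07). UCHL5, which is anchored by ADRM1, was measured at 150.1, 164, 151 and 143 CPM in DMSO replicates 1 to 4 and 109.2, 108.8, 108.6 and 108.5 CPM in PR-957 replicates 1 to 4. Its PR-957 libraries lay closer together than the DMSO libraries and below all of them. Among the shuttle factors, UBQLN2 was found at 25.9, 26.9, 26.1 and 26.4 CPM with DMSO and 29.7, 33.6, 32.5 and 33.4 CPM with PR-957, with a change of 0.30 ± 0.069 on the log2 scale (± SE, adjusted p = 0.00157), and UBQLN4 had a change of 0.18 ± 0.061 on the log2 scale (± SE, adjusted p = 0.0217). UBQLN1 fell, with -0.20 (adjusted p = 0.00456), while RAD23B had -0.055 (adjusted p = 0.415). TXNL1, a thioredoxin-like protein of the cap, and ECPAS, an adaptor of the 26S complex, fell with -0.40 (adjusted p = 7.73e-06) and -0.31 (adjusted p = 5.9e-05). UBE3C, a ubiquitin ligase of the proteasome, had 0.14 (adjusted p = 0.0785). The tissue-restricted subunits PSMA8 and PSMB11 had 1 and 0 counts in all libraries together and were not tested.

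**Figure D4:**
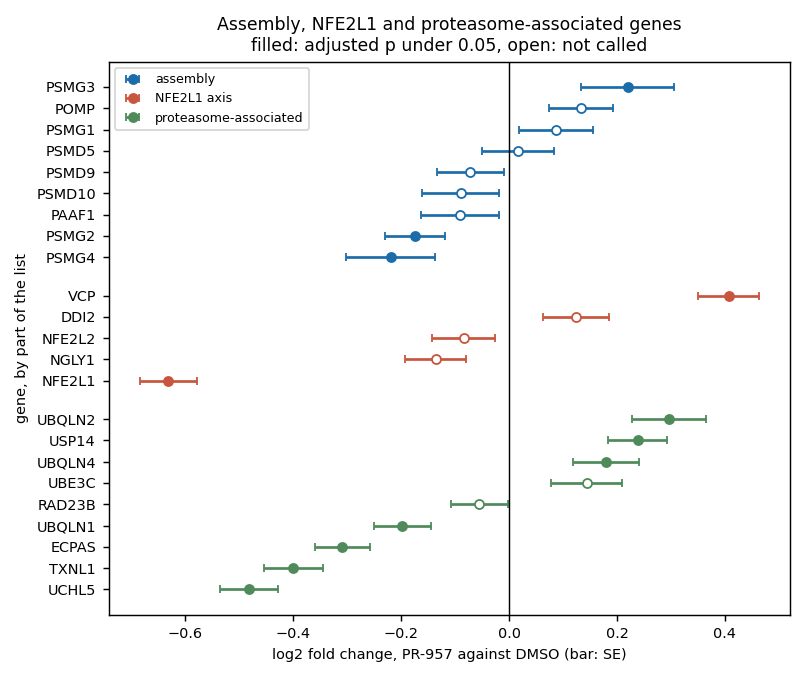
Log2 fold change of PR-957 against DMSO (x axis, bars show SE, 4 and 4 libraries) of the 23 tested genes of the assembly, NFE2L1 and proteasome-associated list (y axis). Filled points had an adjusted p under 0.05: 5 lie right of 0, with VCP at 0.41, and 7 lie left, with NFE2L1 at -0.63.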

How the data were processed

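RNA-sequencing counts of 8 MOLM-13 libraries were analysed. Per the submitters' processing notes, the authors trimmed reads with Trimmomatic 0.39, aligned them to hg38 with STAR 2.7.10a and assigned fragments to RefSeq genes with featureCounts 2.0.1, per the file headers. The deposited values were raw counts. A deposited table of the authors' own DESeq2 comparison, with fold changes and p-values, was not used. Of 38557 gene rows, 6 were empty. The header named 16 libraries, of which 8 were analysed here.

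The 2 groups were compared by edgeR 4.0.16 in R 4.3.3 (TMM scaling, filterByExpr, glmQLFit with robust estimation, glmQLFTest, two-sided, Benjamini-Hochberg over 13179 genes, which held 99.9% of counts). SE were derived from the F statistic. FPKM were divided by exon bases on the primary chromosome. The deposited strand field ends at 255 characters, and exons listed beyond it were given the strand of the first. Exon overlap of subunit genes with other genes was on the opposite strand, apart from 1 base in PSME2. For 6 genes that lie within exons of the opposite strand, the median density of counts was 0.0117 of that of the host. Dropping fragments shared between genes would also leave few counts there, so this does not settle whether counts are stranded. The overlap was largest in PSMC1 (61.4% of exon bases) and PSMB7 (39.5%). Its part in their counts and levels was not tested. Named pseudogenes exist for 20 subunit genes, and PSMC1 has 13. Fragments shared with them are uncertain.

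No replicates were duplicates (lowest chi-square per gene 3.28). Deviations from the group means correlated between same-numbered libraries (0.22, 0.26, 0.13 and 0.23), each best with its own number, so the numbers were taken to pair the samples. This pairing comes from the data, and the main test did not use it. Alternatives were DESeq2 1.42.0, limma-voom 3.58.1, other scalings and filters, the replicate block, a replicate-split term, subsets and leaving out each library. The replicate-split term set replicates 1 and 2 against 3 and 4, a split that no label names as a batch. The subunit genes and lists were chosen with earlier results of these data known. 1 gene planned for the pathway list is not reported here and is not among its 25. Values by library are given for catalytic and inducible beta subunits, for the largest and smallest change of each class, for tested subunits without a call, and for the ends of each part of the pathway list and NFE2L1.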

Additional observations from a re-analysis of the deposited data

Results flagged for a closer look

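In 4 of 84 sets of 4 values examined, 1 library lay far from the other 3, as judged by its gap to the nearest value divided by the range of the group. Chance alone would do this in about 1 in 20 sets. DMSO replicate 4 was the lowest for PSMD1 (76.6 CPM against 89.5 to 90.9 CPM, gap 0.903 of the range), PSMB6 (55.8 CPM against 62.9 to 64.1 CPM, 0.856) and PSMA3 (123 CPM against 142 to 145 CPM, 0.848). DMSO replicate 1 was the highest for PSMB8 (9.96 CPM against 7.73 to 8.08 CPM, 0.846). Without DMSO replicate 4, PSMD1, PSMB6 and PSMA3 kept their calls.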

How the results depend on the processing

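Over 21 alternatives, between 19 and 30 subunit genes were higher (21 to 24 when 1 library was left out), none was lower, and 18 of the 23 called genes kept their call in each. PSMA2 lost it in 8, PSMC2 in 4, PSMB1 and PSMB7 in replicates 3 and 4 alone, and PSMD6 in replicates 1 and 2 alone. Scaling by library totals alone moved the median of all genes to 0.081 and that of subunit genes to 0.30, with 5 alpha genes, 2 activator or inhibitor genes and 1 inducible gene higher, and 9 list genes higher and 4 lower. PSMA1 (0.048), PSMA6 (0.036) and PSMD14 (0.035) then turned positive. PSMB10 was the 1 inducible gene called in that setting and under limma-voom, upper-quartile scaling, no filter, the replicate block and the replicate-split term. It was also called in replicates 1 and 2 alone and when either DMSO replicate 1 or replicate 4 of PR-957 was left out. With single libraries left out, 0 to 1 inducible gene was called. In replicates 1 and 2 alone, PSMA1 (0.028), PSMA6 (0.075) and PSME4 (-0.015) changed sign, and in replicates 3 and 4 alone PSMC6 did (-0.046). PSMC6 was -0.013 without PR-957 replicate 2. Without single libraries, 3 to 5 list genes were higher (3 without DMSO replicate 4). The PSMB10 to PSMB7 ratio difference ran from -0.027 to 0.072, with -0.010, -0.027 and -0.020 without DMSO replicates 2 and 4 and PR-957 replicate 2. The PSMB8 to PSMB5 difference ran from -0.62 to -0.46 when 1 library was left out and was -0.41 within replicates 1 and 2 and -0.67 within replicates 3 and 4. The cause of these shifts was not tested. The replicate block gave 26 higher subunit genes and changed no call among them but those of PSMA5, PSMD8 and PSMB10, and for the ratios a paired exact test of 4 pairs cannot pass 0.05. Genes with 0 counts limit what can be said of PSMB3, PSMB9, PSMC4 and PSME1.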
